A study of Rattus norvegicus with 20 samples.

Results

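The miRNAs described here are the 4 families mir-128, mir-129, mir-138 and mir-153, chosen by name. Every copy of them in the miRBase precursor list and every mature arm in the miRBase mature list was taken, which gave 7 of 444 precursors and 11 of 577 mature miRNAs. The precursors are mir-128-1, mir-128-2, mir-129-1, mir-129-2, mir-138-1, mir-138-2 and mir-153. Small RNA libraries had been sequenced from 3 brain hemispheres, 3 serum samples and 14 other tissues of male Long Evans rats at postnatal day 35, to ask in which tissues circulating miRNAs may arise. The rats were untreated and of 1 strain, sex and age. The hemispheres were run singly, the serum libraries are labelled as 3 separate replicates, and each of the 14 tissues is 1 pool of 3 rats.

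A miRNA is cut from a hairpin precursor, and 1 of the hairpin's arms, 5p or 3p, is loaded into the silencing complex, where the seed (bases 2 to 8) pairs with target mRNAs. The 4 families are commonly described as neuronal. miR-128 is known for lowering the excitability of neurons, miR-138 for acting at dendritic spines, miR-153 for targeting synaptic vesicle and amyloid precursor proteins, and miR-129 for regulating a dendritic potassium channel. Copies of 1 family sit at different places in the genome and can give the same mature arm.

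All 11 arms and all 7 hairpins were found in the RefSeq miRNA sequences of the rat build GRCr8. The arms that gave nearly all mature reads in brain are shown first, with the seed in capitals.
miR-128-3p: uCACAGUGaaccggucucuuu
miR-129-5p: cUUUUUGCggucugggcuugc
miR-138-5p: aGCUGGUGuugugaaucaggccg
miR-153-3p: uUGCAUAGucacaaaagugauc

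These 4 seeds differ from each other, so the families do not form 1 seed group. The opposite arms are shown because those of mir-128 and mir-138 differ between copies. miR-129-1-3p has the same letters as the start of miR-129-2-3p, and mir-153 has a single copy.
miR-128-1-5p: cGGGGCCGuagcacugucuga
miR-128-2-5p: gGGGGCCGaugcacuguaaga
miR-129-1-3p: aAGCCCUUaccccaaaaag
miR-129-2-3p: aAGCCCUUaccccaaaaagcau
miR-138-1-3p: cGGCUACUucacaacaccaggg
miR-138-2-3p: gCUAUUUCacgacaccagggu
miR-153-5p: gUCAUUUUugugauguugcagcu

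The 5p arms of both mir-128 copies share 1 seed, as do the 3p arms of both mir-129 copies, whereas the 3p arms of the mir-138 copies have different seeds. Both mir-128 hairpins are printed below with their arms in capitals, since the split of reads between them is described later.
Mir128-1: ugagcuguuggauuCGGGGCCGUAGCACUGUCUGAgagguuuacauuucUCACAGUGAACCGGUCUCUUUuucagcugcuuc
Mir128-2: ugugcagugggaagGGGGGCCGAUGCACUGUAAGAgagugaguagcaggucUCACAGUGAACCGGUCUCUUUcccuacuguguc

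In GRCr8, Mir128-1 lies at chr13:42251884-42251965 on the plus strand within R3hdm1, and Mir128-2 at chr8:120963795-120963878 on the minus strand within Arpp21. Mir129-1 (chr4:58589711-58589782, plus) lies between Snd1 and Lep, and Mir129-2 (chr3:100657390-100657486, minus) between Hsd17b12 and Ttc17. Mir138-1 (chr8:131178434-131178532, plus) lies between Abhd5 and Topaz1, and Mir138-2 (chr19:10680133-10680214, minus) within Slc12a3. Mir153 (chr6:144306594-144306680, plus) lies within Ptprn2. After the 3′ end of miR-128-3p the hairpins of its copies are identical for 0 bases, and before its 5′ end for 2 bases. For miR-129-5p these stretches were 3 and 1 bases and for miR-138-5p 0 and 1 bases, so a read of the shared arm alone carries little or nothing that assigns it to a copy. Values per copy are therefore uncertain, and the copies are also given summed.

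Levels are given in RPM, reads per 1000000 reads of the same list (precursor or mature) in that library. RPM is a share of reads and not a number of molecules. Precursor totals were 388275 to 1204552 reads in the hemispheres, 162080 to 3685761 in the pools and 7556 to 10862 in serum. A single serum library thus reached the level of 3 reads only at 276 to 397 RPM. The hemispheres carried their label's markers, since the summed level of the neuronal markers mir-124, mir-9a and mir-137 ran from 35966 to 43997 RPM in the hemispheres and was at most 154 RPM in any pool. The pool labelled pancreas went against its label. It held mir-122, the hepatocyte miRNA, at 14862 RPM against 14726 RPM in liver, and had 0 RPM of the acinar markers mir-216a and mir-217. In whole tissue, fewer cells of a type and less RNA per cell cannot be told apart.

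mir-128 was the most abundant of the families in every hemisphere. Its copies summed to 17032, 16939 and 13854 RPM in brain, with a mean of 15941 ± 1809 RPM (SD, n = 3). The mean of mir-128-1, 12452 ± 1811 RPM, placed it 18th among 444 precursors in brain, and that of mir-128-2 was 3489 ± 286 RPM (both SD, n = 3). On this scale the hemispheres differed among themselves by less than their distance to every pool.

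Outside brain, mir-128 did not fall to a uniform floor. The thymus pool held 5382 RPM (95% Wilson interval 5209 to 5562) for the copies summed, which was 33.8% of the brain mean, and the muscle pool held 1577 RPM (1510 to 1648), or 9.90%. The intervals of these pools did not overlap with each other or with any pool below them. Spleen followed at 492 RPM (406 to 596) and testes at 389 RPM (304 to 497), and these overlapped. The other 10 pools ran from 44.6 RPM in pancreas to 329 RPM in fat. Pools are single libraries, and their intervals cover counting error only.

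Neuronal markers were near 0 where mir-128 was high outside brain. Their summed level was 28.8 RPM in thymus, 0.071% of the brain mean, and 7.94 RPM in muscle, 0.020% of it. mir-129 had 0 reads in both pools, and mir-153 had 3 reads in thymus and 0 in muscle. Leukocyte markers (mir-142, mir-223, mir-150 and mir-155) summed to 65829 RPM in thymus and 62260 RPM in spleen, while mir-128 stood at 492 RPM in spleen and 5382 RPM in thymus. The sum was mostly mir-142, at 65299 RPM in thymus and 59167 RPM in spleen, and hides differences between the markers. mir-223 was at 33.4 RPM in thymus and 365 RPM in spleen, mir-150 at 281 and 2498 RPM, and mir-155 at 216 and 230 RPM. Whether any cell type accounts for the thymus level was not tested.

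**Figure D1:**
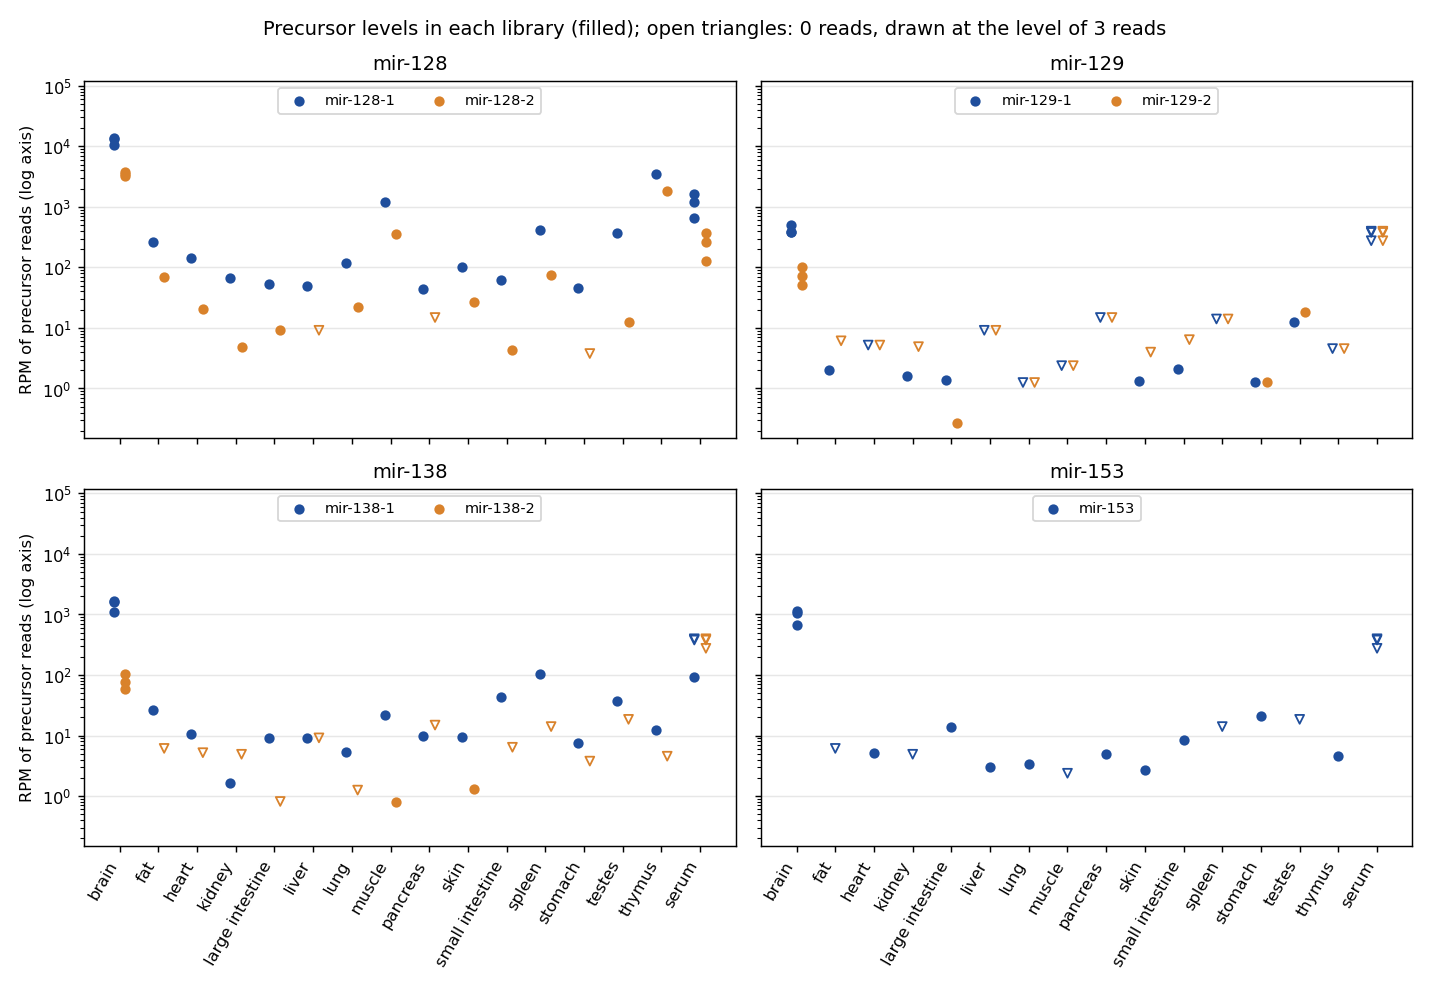
Level of each precursor in RPM of precursor reads on a log axis, for the 3 brain hemispheres, the 14 pools and the 3 serum libraries, with blue for copy 1 (or mir-153) and orange for copy 2. Filled points are libraries with reads and open triangles mark 0 reads at the level that 3 reads would have, so serum triangles at 276 to 397 RPM lie above many tissue values. Brain points stand above every pool in all panels on this scale (with TMM or DESeq2 scaling the thymus pool passes hemispheres for mir-128), and mir-128 is the panel in which pools come closest.

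The order of brain and thymus depended on how libraries were scaled. Scaling by list totals, each hemisphere stood above thymus for both copies. With TMM scaling, which sets libraries equal over the bulk of miRNAs, mir-128-1 averaged 8015 RPM in brain and stood at 6230 RPM in thymus, with the lowest hemisphere at 5495 RPM, below thymus. mir-128-2 then averaged 2240 RPM in brain against 3224 RPM in thymus, above all 3 hemispheres. With DESeq2 size factors thymus exceeded every hemisphere for both copies, at 6797 against a brain mean of 4907 RPM and at 3518 against 1383 RPM. The median over 295 precursors of the brain level minus the tissue median was 1.72 (log2) with totals, 0.73 with TMM and 0.00 with DESeq2 size factors. A scaling moves all miRNAs of a library together, and it moved thymus as well as brain. For mir-128-1, thymus rose from 3547 RPM with totals to 6230 and 6797 RPM. The brain mean fell from 12452 RPM to 8015 and 4907 RPM. The other 5 precursors stood above every pool in each hemisphere under all 3 scalings. The share over all tested precursors is not given, so this only describes the members. mir-9a-1 and mir-338, which are not members, also did so with totals. All pools together gave only 12 reads of mir-129-1, 5 of mir-129-2 and 2 of mir-138-2.

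**Figure D2:**
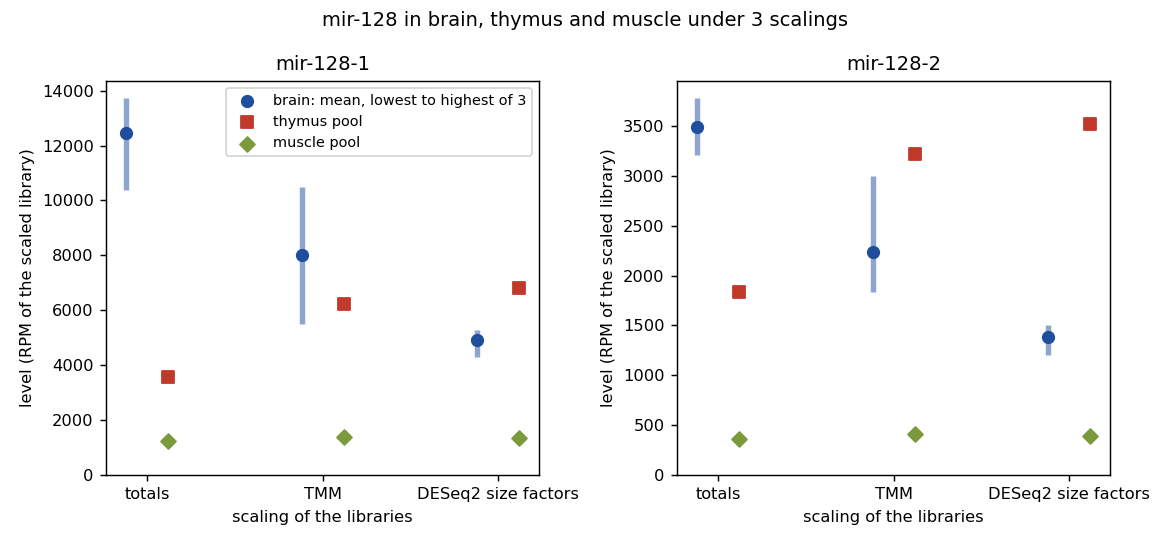
mir-128-1 (left) and mir-128-2 (right) in brain (blue, mean with a line from the lowest to the highest of 3 hemispheres), in the thymus pool (red square) and in the muscle pool (green diamond) under 3 scalings, as RPM of the scaled library on a linear axis from 0. Thymus moves from below the lowest hemisphere with totals to above the brain mean with DESeq2 size factors for both copies, and already with TMM for mir-128-2, while muscle stays below brain under each.

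The reads counted on both copies of mir-128 moved together over the tissues. Pearson's r of log2(RPM + 1) was 0.942 between the copies over 15 tissues and 0.924 over the 14 pools without brain, both lists sharing the same libraries. Because reads of the shared arm can be counted on either copy, r does not show that the copies themselves vary together. Copy 2 took 22.2%, 19.0% and 25.1% of mir-128 precursor reads in the hemispheres, with a mean of 22.1 ± 3.06% (SD, n = 3). In thymus its share was 34.1% (95% Wilson interval 32.6 to 35.7), above all 3 hemispheres. In muscle it was 22.7% (20.96 to 24.64), within their range, and in testes 3.17% of 63 reads (0.875 to 10.9), below it. Stomach had 0 of 36 reads on copy 2, with an upper bound of 9.64%. The share thus differed between pools by more than counting error, although each pool was measured once and reads of the shared arm cannot be placed with certainty.

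**Figure D3:**
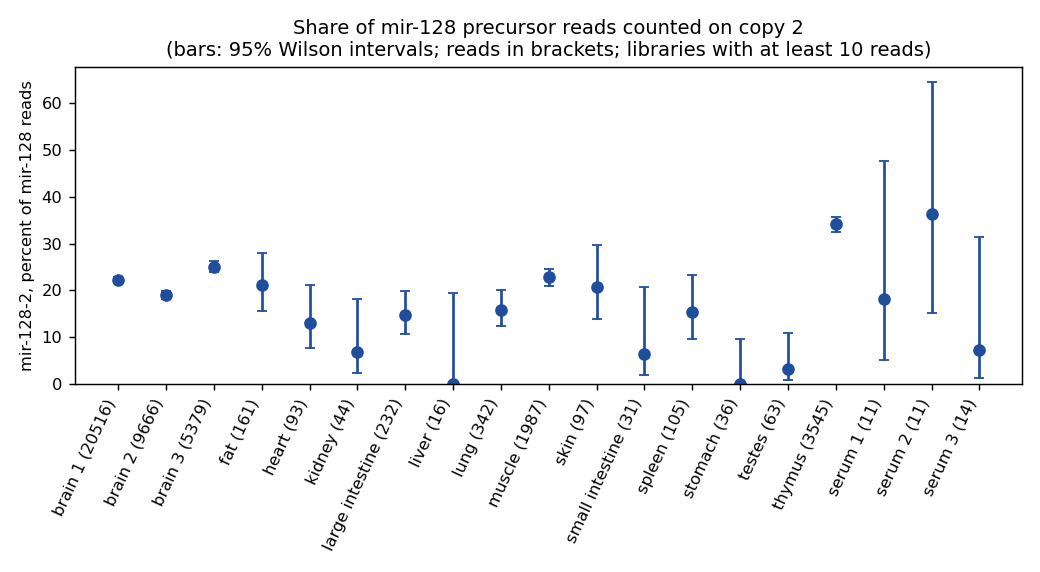
Share of mir-128 precursor reads counted on mir-128-2, in percent, for each library with at least 10 such reads (number in brackets), with 95% Wilson intervals that cover counting error only. The thymus pool at 34.1% lies above the hemispheres at 19.0% to 25.1%, testes at 3.17% lies below them, and the serum intervals span most of the range.

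mir-129, mir-138 and mir-153 were lower in brain than mir-128 and closer to 0 elsewhere. The copies of mir-129 summed to 460, 608 and 438 RPM in the hemispheres, a mean of 502 ± 92.6 RPM (SD, n = 3), with mir-129-1 at 427 ± 68.7 RPM and mir-129-2 at 74.8 ± 25.2 RPM. All 14 pools together gave 17 reads of mir-129, and 7 pools had none. The highest pool was testes, at 30.8 RPM (95% Wilson interval 13.2 to 72.2) from 2 reads of copy 1 and 3 of copy 2. This stood below the lowest hemisphere by 14.2-fold, on 5 reads. The neuronal markers were at 49.4 RPM in testes, 0.121% of the brain mean, against 6.15% for mir-129.

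mir-138-1 was at 1671, 1579 and 1118 RPM in the hemispheres, with a mean of 1456 ± 296 RPM (SD, n = 3). Spleen was its highest pool at 103 RPM from 22 reads (95% Wilson interval 68.1 to 156), and its interval did not overlap that of small intestine at 42.7 RPM from 20 reads (27.6 to 65.9). With TMM scaling this order turned, with small intestine highest at 96.9 RPM. Small intestine, testes at 37.0 RPM, fat at 26.6 RPM and muscle at 21.4 RPM followed in that order and each overlapped its neighbour. The lowest pool was kidney with 1 read. mir-138-2 was far lower, at 103, 75.4 and 59.2 RPM in the hemispheres, and had 1 read in skin, 1 in muscle and 0 in the other 12 pools.

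mir-153, the member with a single copy, was at 1124, 1072 and 672 RPM in the hemispheres, a mean of 956 ± 247 RPM (SD, n = 3). Its 2 highest pools were from the gut, namely stomach at 21.4 RPM from 17 reads (95% Wilson interval 13.4 to 34.3) and large intestine at 13.8 RPM from 51 reads (10.5 to 18.2), and these overlapped. Small intestine was next at 8.54 RPM from 4 reads. Fat, kidney, muscle, spleen and testes had 0 reads, where 3 reads would be 2.38 RPM in muscle and 18.5 RPM in testes. In stomach mir-153 reached 2.24% of the brain mean and in large intestine 1.45%, where the neuronal markers reached 0.142% and 0.166%. That sum was mostly mir-9a, at 11981 to 11996 RPM per copy in brain, and its markers differed. mir-137 was at 83.2 RPM in brain, 1.26 RPM in stomach and 0.814 RPM in large intestine, on few reads. The mir-124 copies, at 1522 to 1585 RPM in brain, were at 1.26 RPM or lower in both pools. The part of gut neurons in these reads was not tested.

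In each hemisphere the order was mir-128-1, mir-128-2, mir-138-1, mir-153, mir-129-1, then mir-138-2 and mir-129-2, the last pair in an order that changed between hemispheres. mir-138-1 stood above mir-153 within each hemisphere, although the lowest value of the former (1118 RPM) and the highest of the latter (1124 RPM) overlapped. The 2 lowest precursors were at 79.2 ± 22.1 RPM and 74.8 ± 25.2 RPM (SD, n = 3) and did not differ beyond their spread.

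The comparison of brain with the 14 pools asks which miRNAs mark brain among tissues. It was run with edgeR's quasi-likelihood test, with Benjamini-Hochberg adjustment over 295 precursors, and fold changes are log2 of TMM-scaled counts. All 7 precursors were higher in brain at an adjusted p under 0.05, where 24.1% of tested precursors were called higher and the median log2 fold change was 0.17. A precursor was tested if it had at least 10 reads in 3 libraries. mir-129-1, mir-129-2 and mir-138-2 reached 10 reads in 0 pools and mir-153 in 2, so these entered the test only through brain. The filter thus favoured a higher brain level for them. For that reason the count of 7 is given as a description, and the fold changes of these precursors are given without a p-value.

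Of the precursors that pools alone would have brought into the test, mir-138-1 was higher in brain by 5.06 (log2, SE 0.65, adjusted p = 5.8e-06), and its call held under all 26 alternatives computed for it. mir-128-1 was higher by 3.98 (SE 0.89, adjusted p = 0.0019) and mir-128-2 by 3.64 (SE 1.42, adjusted p = 0.047). The fitted log2 fold changes of the precursors that entered through brain were 7.06 (SE 0.90) for mir-129-1, 6.94 (SE 0.65) for mir-138-2, 5.86 (SE 1.05) for mir-153 and 5.46 (SE 1.05) for mir-129-2. mir-128, the family with the highest brain level, had the smallest fitted fold changes of the 4.

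The call for mir-128-2 was weak. It was lost in 22 of 26 alternatives, with an adjusted p of up to 0.321, while its log2 fold change stayed positive, between 2.18 and 5.32. With the copies summed to 1 row each, mir-128 was higher in brain by 3.87 (log2, SE 0.99, edgeR adjusted p = 0.0056) and mir-138 by 5.15 (SE 0.64, adjusted p = 4.5e-06). Summed mir-129 had 17 reads over all pools and again entered only through brain. The summed mir-128 value rose to 4.97 (SE 0.71, adjusted p = 2.9e-05) without the thymus pool. When the hemispheres, which are 1 tissue, entered as 1 summed library, mir-128 was no longer past the threshold (3.97, SE 1.49, adjusted p = 0.106), whereas mir-138 was (adjusted p = 8.6e-05).

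**Figure D4:**
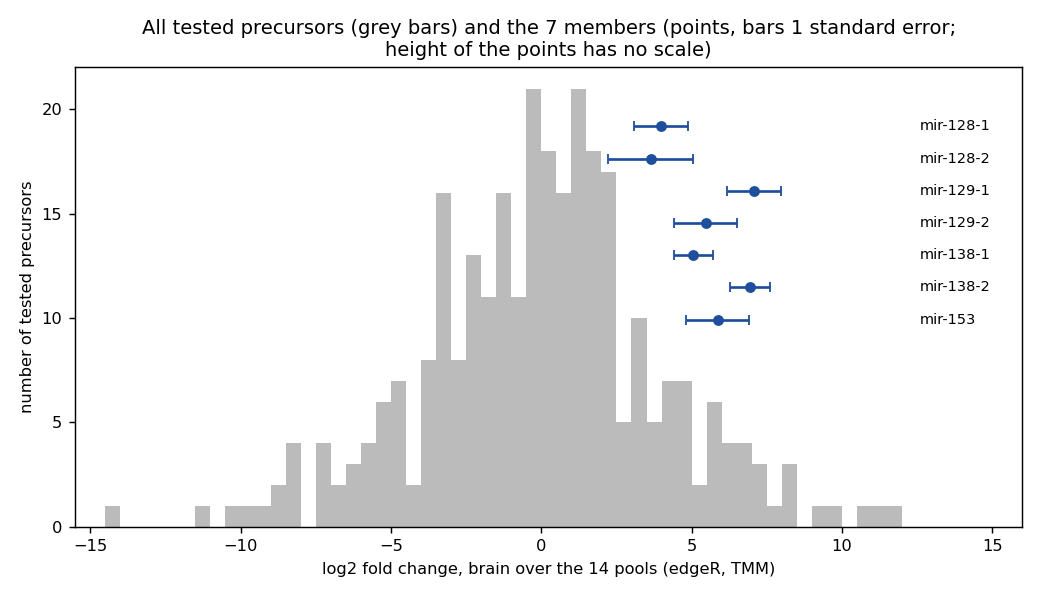
Log2 fold change of brain over the 14 pools from edgeR for all 295 tested precursors (grey bars, number per bin) and for the 7 members (blue points with 1 standard error, at heights without scale). The members lie between 3.64 and 7.06, to the right of the bulk of precursors, and mir-128-2 has the widest error.

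Other miRNAs commonly called neuronal were measured beside the 4 families. Of 14 precursors of mir-124, mir-9a, mir-132, mir-212, mir-137, mir-218a, mir-383, mir-384 and mir-488, 13 were higher in brain at an adjusted p under 0.05 by edgeR, where 24.1% of all tested precursors were. Of these 14, 7 (the mir-124 copies, mir-212, mir-137, mir-383 and mir-384) entered the test only through brain, so the count is a description, and 6 of the other 7 were called. mir-218a-1 was not, at 1.61 (log2, SE 0.75, adjusted p = 0.086). mir-124, the classical neuron-specific miRNA, stood higher than any member in fold, at 10.84 to 11.76 (log2) for its copies, and its brain level was 1522 to 1585 RPM. Brain levels of mir-9a, a miRNA of neural progenitors and neurons, were 11981 to 11996 RPM per copy, near that of mir-128-1. The mir-9a copies were not summed, so this does not compare the families. Their serum counts were fractional (1.99985 reads for mir-9a-1), so values per copy are uncertain here too. Among 4 glial precursors, 3 were called higher. mir-338, at 4.15 (SE 0.45, adjusted p = 1.0e-06), was the only one that pools alone would have brought into the test, and mir-219a-2 and mir-219b entered through brain. mir-219a-2 and mir-219b may rest on the same reads, so the count of 3 is a description. Their levels kept nearly the same proportion, at 1815 and 246 RPM in brain and 4.01 and 0.543 RPM in thymus. Their serum counts were fractions of a read, 0.881 and 0.119. mir-219a-1 was not called (0.84, adjusted p = 0.293).

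The precursors whose pattern over tissues was most like that of a member differed between families. Likeness was Pearson's r of log2(RPM + 1) over 15 tissues, the hemispheres averaged, among 288 other tested precursors. For mir-128-2 the closest were mir-181b-1 (r = 0.924) and mir-181b-2 (0.921), and for mir-128-1 mir-181b-2 (0.851), mir-361 (0.849) and mir-181b-1 (0.845). With brain left out, r over the 14 pools was 0.920 for mir-128-2 and mir-181b-1 and 0.854 for mir-128-1 and mir-181b-2. mir-448 was closest to both mir-129-1 (0.915) and mir-129-2 (0.946), mir-338 to mir-138-1 (0.883), mir-3543-1 to mir-138-2 (0.974) and mir-137 to mir-153 (0.874). Without brain these values were lower, at 0.607 and 0.846 for mir-448 with mir-129-1 and mir-129-2, 0.657 for mir-338, 0.572 for mir-3543-1 and 0.648 for mir-137. For mir-138-2 the second was mir-124-3, at 0.973 over the 15 tissues and -0.11 without brain, so that likeness rests on the single brain value. These points share libraries and, for low miRNAs, zeros.

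Mature arms told which side of each hairpin gave the reads in brain. miR-128-3p was at 12479, 12521 and 9658 RPM of mature reads, a mean of 11553 ± 1641 RPM (SD, n = 3), and ranked 16th of 577. The 5p arms made 0.327 ± 0.052% of miR-128 mature reads in brain (SD, n = 3). For miR-153 the 5p share was 1.64 ± 0.064%. In the other families the arms were reversed, with 5p at 93.4 ± 1.39% for miR-129 and 99.5 ± 0.28% for miR-138 (SD, n = 3). The hemispheres gave the same leading arm in each family.

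Opposite arms were few, but each is listed for a single copy. miR-128-1-5p had 67 brain reads at 37.4 ± 3.50 RPM (SD, n = 3) and miR-128-2-5p had 0, although copy 2 held 21.8% of mir-128 precursor reads over the hemispheres. In thymus the only 2 reads of a 5p arm were of miR-128-2-5p. For miR-129 the 3p arms behaved otherwise. miR-129-2-3p, from the copy with 14.7 ± 2.58% of mir-129 precursor reads, held 58 of 60 brain 3p reads, or 96.7% (95% Wilson interval 88.6 to 99.1). miR-129-1-3p is 3 bases shorter as listed and its letters are those of the start of miR-129-2-3p, so the split of these reads between the copies is uncertain. miR-138-1-3p and miR-138-2-3p had 8 brain reads each.

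**Figure D5:**
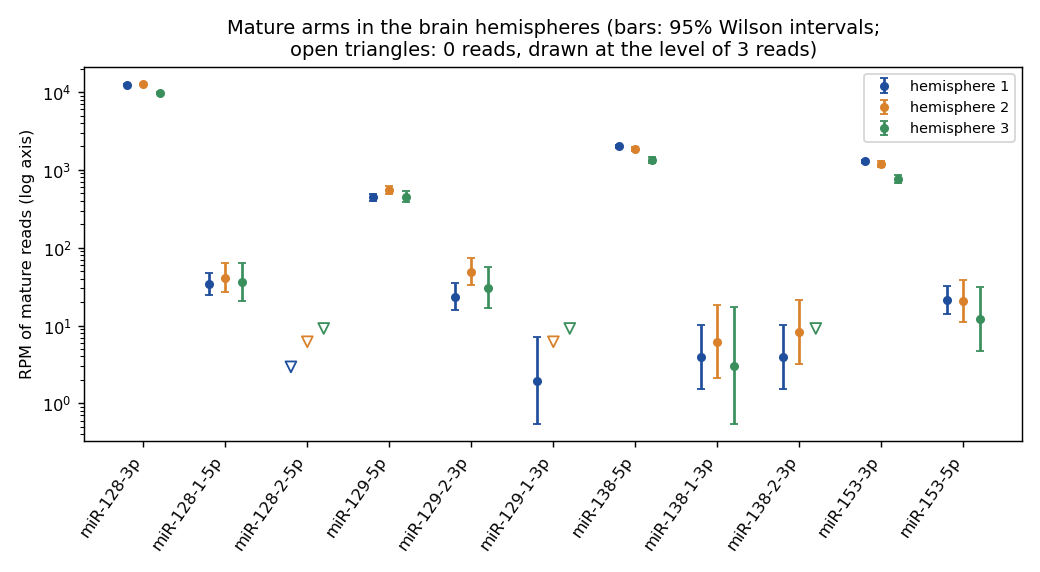
Level of the 11 mature arms in the 3 hemispheres, in RPM of mature reads on a log axis with 95% Wilson intervals, and open triangles at the level of 3 reads where a library had 0. Each family has 1 leading arm at or above 443 RPM in every hemisphere, and its opposite arms lie at 49.4 RPM or lower.

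In the mature list 20.0% of 290 tested arms were called higher in brain than in the pools by edgeR, with a median log2 fold change of -0.28. miR-138-5p was higher by 4.89 (log2, SE 0.62, adjusted p = 4.2e-06) and miR-128-3p by 3.63 (SE 0.95, adjusted p = 0.0058). miR-129-5p reached 10 reads in 0 pools and miR-153-3p in 2, so both entered the test only through brain. Their fitted log2 fold changes were 6.84 (SE 0.84) and 5.66 (SE 0.99), given without a p-value. miR-128-3p was at 3038 RPM in thymus, 26.3% of the brain mean, and 1135 RPM in muscle. Every hemisphere was above thymus with totals and with TMM scaling, and 2 of 3 were with DESeq2 size factors.

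Among opposite arms, miR-129-2-3p and miR-128-1-5p also entered through brain only. The fitted log2 fold change of miR-129-2-3p was 4.94 (SE 0.95). That of miR-128-1-5p was 2.69 (SE 0.87), and no p-value is given for either arm. Even so, miR-128-1-5p lost its call when hemisphere 1 or 2 was left out with the same arms tested, and with the hemispheres summed. Testes held miR-128-1-5p at 40.9 RPM from 4 reads. Only 1 hemisphere, at 41.2 RPM, thus lay above every pool, and none did with TMM or DESeq2 scaling. The arms miR-128-2-5p, miR-129-1-3p, miR-138-1-3p, miR-138-2-3p and miR-153-5p, the last with 36 brain reads, did not reach the count minimum and were not tested.

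Mature reads were a smaller part of precursor reads for mir-128 than for the other families. In brain they came to 61.4 ± 2.13% of precursor reads for mir-128, against 88.0 ± 4.36% for mir-129, 96.2 ± 0.53% for mir-138 and 97.2 ± 1.08% for mir-153 (SD, n = 3). In thymus the mir-128 value was 45.4% of 3545 reads (95% Wilson interval 43.8 to 47.1) and in muscle 47.0% of 1987 (44.8 to 49.2), both below every hemisphere. In testes it was 87.3% of 63 reads (76.9 to 93.4), above every hemisphere. Which reads were counted on the hairpin but on neither arm cannot be read from the counts.

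Serum was compared with brain because the study asked whether circulating miRNAs relate to brain. Of the 4 families, mir-128 was the one seen in every serum library. Its copies summed to 1456, 1013 and 1765 RPM, from 11, 11 and 14 reads, a mean of 1411 ± 378 RPM (SD, n = 3), which is 8.85% of the brain mean. This is below thymus (5382 RPM), near muscle (1577 RPM) and above spleen (492 RPM), on read shares of differing libraries. Neuronal markers summed to 126 to 662 RPM in serum, a mean of 0.796% of brain. The origin of the serum reads was not tested.

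By edgeR over the 6 libraries, the fitted log2 fold change of brain over serum was 3.36 (SE 0.28) for mir-128-1 and 3.59 (SE 0.38) for mir-128-2, and no hemisphere overlapped a serum library. For miR-128-3p it was 4.35 (SE 0.52), from 8, 2 and 3 serum reads. At least 10 reads were reached in 1 serum library by mir-128-1 and in 0 by the others. All 3 thus entered the test only through brain, and no p-value is given. In this comparison 44.7% of 235 tested precursors and 52.8% of 212 mature miRNAs were called higher in brain, with a median log2 fold change of 2.15 over the precursors and 3.86 over the mature miRNAs. miR-128-3p thus lay above the median of its list by less than its SE.

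The other families were at or near 0 reads in serum, at a depth that limits what can be said. mir-138-1 had 1 read in 1 serum library, and the ratio of summed brain to summed serum RPM was 40.8 (95% exact interval of the counts 7.31 to 1611). mir-129 and mir-153 had 0 reads in 26348 serum precursor reads, where 3 reads would be 114 RPM. By that limit brain was at least 8.40-fold higher for mir-153 and at least 4.41-fold higher for mir-129 with its copies summed. At the brain level 25.2 reads of mir-153 and 13.2 of mir-129 would have been seen. mir-138-2 and mir-129-2 were each below the serum limit even in brain, so a level in serum like that in brain was not detectable at this depth. All of these limits cover counting error only, and PCR copies of 1 molecule are not separated in these counts.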

How the data were processed

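Small RNA sequencing of the 20 libraries was analysed. The authors prepared TruSeq libraries, trimmed low-quality base calls, aligned reads to Rn5 with Bowtie in Partek and quantified them against miRBase release 21 and RefSeq. The values the authors deposited are estimated counts per miRNA, not normalized, in 3 stacked lists (388 RefSeq, 444 precursor and 577 mature features). The same reads were counted in each list, so RPM used the list's own total. RefSeq counts equalled precursor counts for all 7 members in 20 of 20 libraries.

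Members, lists and tests were chosen with earlier results of these data known. Named miRNAs are all members, the 3 most alike precursors for each, neuronal and glial lists, and miRNAs sharing seed bases. For tests, estimated counts were rounded. edgeR 4.0.16 (R 4.3.3, quasi-likelihood, TMM) was run on features reaching 10 counts in 3 or more of the compared libraries. Benjamini-Hochberg adjusted p below 0.05 was called. Standard errors came from the fold change and its F value. The pools formed 1 group, so the spread between tissues is the error. The hemispheres are 1 tissue counted as 3 libraries, which can make p too small. Nothing states separate extractions for the serum replicates, so their spread may be technical. Wilson intervals are 95%, floors are 3 reads, and 1 RPM was added before log2. The procedure was run on simulated data in which all pools had the same mean level per miRNA and no filter was applied. That simulation does not cover tissue-specific levels or entry through brain alone. Alternatives were DESeq2 1.42.0, scaling, filter, pseudocount, annotation, each replicate and pool left out, hemispheres summed and the replicate block, and, chosen after seeing the data, copies summed and replicates left out with the tested features kept. Brain and serum share replicate numbers in the labels, and the paper states that tissues came from the same animals, without tying numbers to animals. Deviations of same-numbered libraries correlated at 0.096, -0.143 and -0.035 over 73 precursors. Coordinates and sequences are RefSeq's for GRCr8, not Rn5. Python 3.11.15, pandas 2.3.3, SciPy 1.17.1 and Matplotlib 3.10.9 were used.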

Additional observations from a re-analysis of the deposited data

How the results depend on the processing

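Against the pools, among members that did not enter through brain alone, the calls of mir-138-1, miR-138-5p and miR-128-3p held in 26 of 26 alternatives, that of mir-128-1 in 25 (not with the hemispheres summed, 4.08, adjusted p = 0.055) and that of mir-128-2 in 4. No fitted fold change of a member turned its direction in 477 computed, most of them of members that entered the test only through brain. The number of precursors higher in brain than in the pools was 71. It was 123 with library totals, 40 with the hemispheres summed, and 24 to 26 without a hemisphere, where 263 to 272 precursors were tested because those seen only in brain then miss the filter. With the 295 precursors kept it was 46, 53 and 63 without hemisphere 1, 2 and 3. For mature arms it was 58, with 94 when unfiltered, 88 without the muscle pool 22 to 26 without a hemisphere and 48 to 54 so with the tested arms kept. Against serum, 105 precursors and 112 mature miRNAs were higher in brain, and 29 to 102 and 19 to 101 with 1 library left out, of only 68 and 50 tested where a hemisphere was missing, or 95 to 102 and 83 to 115 with the tested miRNAs kept. With the replicate block the counts were 97 and 95. Over the alternatives of this comparison, the call of mir-129-1 was lost in 1 of 12, and no other member's call changed. All tested members entered this comparison only through brain, so that is not read as support. Same-numbered libraries did not deviate together in every pair, so the block is not read further. Of 7 precursors above every pool in each hemisphere with totals, 5 were so with TMM and 5 with DESeq2 size factors. The share over all tested precursors is not given, so these counts only describe the members. Non-members such as mir-9a-1 and mir-338 also had all 3 hemispheres above every pool with totals, while mir-219a-1 had 1. Depth limits serum and the opposite arms most.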

Other observations

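Other miRNAs of the mature list carry part of the members' seeds. miR-27b-3p and miR-27a-3p hold 6 bases of the miR-128-3p seed shifted by 1 base, and miR-27b-3p was at 37744 ± 1805 RPM in brain (SD, n = 3), above miR-128-3p, at 21320 RPM in thymus and at 148797 RPM in skin, its highest pool. miR-27a-3p was at 294 ± 40.3 RPM in brain (SD, n = 3). miR-448-3p shares bases 2 to 7 with miR-153-3p and was at 198 ± 34.4 RPM in brain (SD, n = 3), with testes its highest pool at 10.2 RPM and 0 in thymus. miR-133a-5p, of the muscle miRNA family, shares bases 2 to 7 with miR-138-5p and was at 0 RPM in brain and 379 RPM in muscle. In brain, miR-448-3p and miR-133a-5p thus stood below the members with which they share seed bases.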
